A study of Mus musculus with 2 samples.

Results

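The regenerating (Reg) genes encode small secreted C-type lectins that are known as pancreatitis-associated and pancreatic stone proteins. The 6 mouse genes of the chromosome 6 cluster, Reg1, Reg2, Reg3a, Reg3b, Reg3d and Reg3g, were taken by gene symbol, and all 6 were among the 31053 genes of the count tables. Reg1 and Reg2 are made by acinar cells and released into pancreatic juice with the digestive enzymes. Reg3b, the mouse pancreatitis-associated protein, and the antibacterial lectin Reg3g are induced in injured or inflamed epithelium through IL-6 and IL-22 family cytokines and STAT3. The glycosyltransferase-like protein Extl3 is a proposed Reg receptor, and Reg4 is a further family member outside the cluster.

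Pancreatic cells were obtained after pancreatitis from mice that carry the Rosa26 reporter R26[CA]30EYFP on a C57Bl/6J background. In this reporter EYFP follows a repeat of 30 CA units and is read only after the repeat changes length. EYFP positive cells made 1 single-cell library and EYFP negative cells made the other, so both groups share the genotype, the strain and the pancreatitis. The labels give the treatment as none beside the title's pancreatitis, and give neither the way it was induced, the time after it, the age nor the number of animals.

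The deposited values are counts of unique molecular identifiers (UMIs), each standing for 1 captured RNA molecule, per gene and cell barcode. A barcode entered the analysis with 200 or more genes seen and no more than 20% of its UMIs mitochondrial. This left 860 of 1717 EYFP positive barcodes with 2745342 UMIs and 553 of 745 EYFP negative barcodes with 4857210 UMIs. The median kept barcode held 1007.5 UMIs in the EYFP positive and 8020 in the EYFP negative library. By their markers, 87 EYFP positive barcodes were acinar-like and 222 ductal-like, against 1 and 2 in the EYFP negative library, where 389 of the 553 barcodes were T-like. The libraries shared 4 barcode sequences, which held 0 Reg UMIs in the EYFP positive library, and 1 of them held 7 Reg1 UMIs in the EYFP negative library. EYFP is not among the listed genes and gave no check of the sort. Each group is 1 library, so nothing was replicated and nothing was tested. The 95% intervals given cover counting error only, and library and group cannot be told apart. Likewise, in a sum over barcodes, fewer cells of a type and less RNA per cell cannot be told apart.

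Reg1 (ENSMUSG00000059654), Reg2 (ENSMUSG00000023140), Reg3a (ENSMUSG00000079516), Reg3b (ENSMUSG00000071356), Reg3d (ENSMUSG00000068341) and Reg3g (ENSMUSG00000030017) are neighbours. They lie within 98.2 kb at chr6:78370657-78468872 of GENCODE M21 (mouse GRCm38), and no gene of another family is annotated between them. Reg3b (chr6:78370657-78373466), Reg3a (chr6:78380709-78383827), Reg2 (chr6:78395623-78408106) and Reg1 (chr6:78422711-78428667) lie on the plus strand. Reg3d (chr6:78375874-78378865) and Reg3g (chr6:78466269-78468872) lie on the minus strand. The coding sequences of Reg1 and Reg2 were identical at 78.8% of aligned positions, whereas that of Reg3d matched those of the other 5 genes at 57.4% to 65.8%. The longest identical run between any 2 members' transcripts was 35 bases, shared by Reg3b and Reg3g, and Reg1 and Reg2 shared 19. How the counting treated reads that fit more than 1 member is not given in the sources used here, so small counts of a member beside large counts of Reg1 remain uncertain.

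The 250 bases before the start of the 3 members with more than 3 UMIs are shown for comparison, because barcodes are later separated by the factor Rbpjl, whose family binds the box TTTCCCA. They are read 5′ to 3′ on each gene's strand from the RefSeq promoter table for GRCm38.p6, at chr6:78425733-78425982 (plus) for Reg1, chr6:78404905-78405154 (plus) for Reg2 and chr6:78378866-78379115 (minus) for Reg3d. The Reg1 and Reg2 windows lie inside the GENCODE gene spans given above, so the RefSeq starts used for them are not the outermost GENCODE starts. Capitals mark TTTCCCA on either strand.
Reg1: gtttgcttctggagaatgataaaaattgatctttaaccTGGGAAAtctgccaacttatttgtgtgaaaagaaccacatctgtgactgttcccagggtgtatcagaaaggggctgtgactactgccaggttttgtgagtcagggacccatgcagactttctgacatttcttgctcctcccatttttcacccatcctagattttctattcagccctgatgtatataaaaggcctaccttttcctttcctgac
Reg2: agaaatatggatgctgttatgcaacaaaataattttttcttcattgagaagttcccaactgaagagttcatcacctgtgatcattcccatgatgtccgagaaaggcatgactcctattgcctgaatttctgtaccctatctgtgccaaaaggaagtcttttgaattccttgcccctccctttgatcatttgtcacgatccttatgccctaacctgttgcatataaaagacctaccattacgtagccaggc
Reg3d: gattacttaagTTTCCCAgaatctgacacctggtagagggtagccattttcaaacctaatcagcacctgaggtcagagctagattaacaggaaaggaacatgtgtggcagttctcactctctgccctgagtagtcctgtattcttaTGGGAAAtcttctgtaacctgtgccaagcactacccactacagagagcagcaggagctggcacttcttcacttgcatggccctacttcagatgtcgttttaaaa
The box was searched from 250 bases before to 50 bases after the start. It had 1 match in Reg1, 0 in Reg2, 2 in Reg3d and 2 in Reg3g, and was present in 8.06% of the 32851 promoters of the table. The STAT-type motif TTCNNNGAA was found in 2 of the 6 members, Reg3b and Reg3d, against 8.3% of all promoters, and its match in Reg3d overlaps the first TTTCCCA. All 6 members held CANNTG, which 72.3% of promoters hold. These matches describe letters in a window and not bound sites.

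Reg1, the mouse pancreatic stone protein, gave nearly all of the family's UMIs in both libraries, as a share of molecules counted and not scaled by transcript length. In the EYFP positive library it had 3483 UMIs in 451 of 860 barcodes, against 116 UMIs in 12 of 553 barcodes of the EYFP negative library. Reg2 had 50 UMIs in 16 EYFP positive barcodes against 0 in the EYFP negative library, and Reg3d had 34 UMIs in 29 barcodes against 0. Reg3a had 2 UMIs and Reg3g 1 in the EYFP positive library, and Reg3b had none, although 1 UMI lay in a barcode that failed the filter. These 3 inducible lectins and Reg4 had 0 UMIs in the EYFP negative library, and Reg4 also had 0 in the EYFP positive one. A count of 0 allows up to 1.09 CPM in the EYFP positive and 0.618 CPM in the EYFP negative library, where CPM are UMIs per 1000000 UMIs of the barcodes summed and 3 UMIs are taken as the limit.

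Expressed as a level, Reg1 stood at 1269 CPM in the EYFP positive and 23.9 CPM in the EYFP negative library, a 53.1-fold difference (44.1 to 64.5). Against a floor of 3 UMIs, Reg2 was at least 29.5-fold and Reg3d at least 20.1-fold higher in the EYFP positive library. These bounds move with the counts left: that of Reg2 was 13.0 without the top barcode of each library, 5.87 outside the acinar-like clusters, and 5.48 and 1.71 thinned to 1000 and 500 UMIs per barcode. That of Reg3d was 5.22 outside the acinar-like clusters, and 3.37 and 1.29 thinned to 1000 and 500 UMIs. The remaining 3 members were at or under the floor in both libraries, and no fold was given for them. Of 13282 genes with at least 10 UMIs in the pair of sums, 26.8% were at least 2-fold higher in the EYFP positive library and 8.06% at least 2-fold lower. A member seen in only 1 library could pass that minimum only through the library where it was high. The 40 acinar digestive enzyme and zymogen granule genes of a list that holds no Reg gene ("secretory genes" below) were together 40.9-fold higher (39.8 to 42.1), at 4.26% of UMIs in the EYFP positive and 0.104% in the EYFP negative library.

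The EYFP negative value rested on 1 barcode. That barcode was acinar-like, drew 79.99% of its UMIs from secretory genes, and held 99 of the 116 Reg1 UMIs. Another 7 were in the shared barcode of 70711 UMIs, a ductal-like one, and 10 barcodes held 1 UMI each. Without the top barcode of each library, the family fold was 325 in place of 54.5. Outside the acinar-like clusters of both libraries it was 83.7 (51.9 to 144), with 26.4% of genes at least 2-fold higher and 7.35% at least 2-fold lower. There the fold was 136 (73.5 to 285) without the shared barcode sequences, and the secretory genes differed 63.6-fold. Within the acinar-like clusters the family was at 10681 CPM (10292 to 11081) in 87 EYFP positive barcodes. The 1 EYFP negative barcode there had 18655 CPM (15162 to 22711), and secretory genes gave 34.0% and 79.99% of their UMIs. That barcode fell in the cluster called secretory-rich below. The 31 EYFP positive barcodes of that cluster stood at 20250 CPM (19469 to 21055), with 66.1% from secretory genes, and the intervals of the 2 libraries overlap there. The family and the secretory genes were thus both far higher in the EYFP positive library over all kept barcodes and outside the acinar-like clusters. Within them the comparison rests on 1 EYFP negative barcode and differs with the cluster used. The part of acinar transcripts in the Reg difference was not tested.

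**Figure D1:**
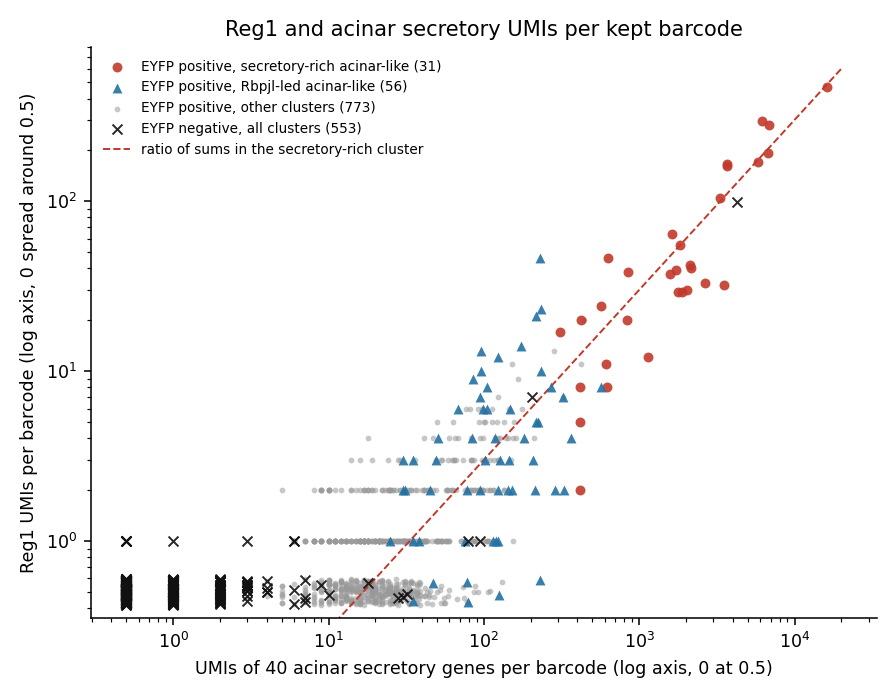
Reg1 UMIs (vertical, log axis) against UMIs of 40 acinar secretory genes (horizontal, log axis) in each kept barcode, with a symbol for each of 4 sets and counts of 0 drawn at or around 0.5. The 31 secretory-rich acinar-like barcodes lie at the upper right around the dashed ratio of 30.0 Reg1 UMIs per 1000 secretory UMIs, and 1 EYFP negative barcode, with 99 Reg1 UMIs, lies near them.

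Barcodes of both libraries were clustered without the Reg genes and named from marker genes. The EYFP positive library held 2 acinar-like clusters that differed in kind. The first, called secretory-rich here, had 31 EYFP positive barcodes and 1 EYFP negative one, was led by Ctrb1, Pnliprp1 and Pnlip, and drew 66.1% of its EYFP positive UMIs from secretory genes. The second, called Rbpjl-led, had 56 EYFP positive barcodes, was led by Rbpjl, Nupr1 and Sel1l, and drew 5.55% of its UMIs from secretory genes. Rbpjl is the acinar-specific partner of Ptf1a in the complex that drives digestive enzyme genes, Nupr1 is a stress-induced chromatin protein, and Sel1l acts in endoplasmic-reticulum-associated degradation. The genes named as leading made the clusters and are not results. All 31 secretory-rich barcodes held Reg1, as did 50 of the 56 Rbpjl-led barcodes.

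Reg1 was highest in the secretory-rich cluster, with 2475 UMIs or 71.1% of the kept Reg1 UMIs in 31 barcodes. The Rbpjl-led cluster had 300 UMIs (8.61%), and the 773 barcodes outside both clusters had 708 UMIs (20.3%). On the CPM scale these were 2123 CPM (1890 to 2378) in the Rbpjl-led cluster, 19818 CPM (19045 to 20614) in the secretory-rich cluster and 286 CPM (265 to 307) outside. Reg1 was thus 9.33-fold lower (8.28 to 10.6) in the Rbpjl-led than in the secretory-rich cluster. In that comparison 77.4% of 2427 genes were at least 2-fold higher in the Rbpjl-led cluster and 9.15% at least 2-fold lower, with a median log2 difference of 2.14. With secretory, mitochondrial, ribosomal and Reg genes left out of the total, Reg1 was 47.1-fold lower in the Rbpjl-led cluster. The direction was the same on both of these scales, and the size depended on the scale. Per secretory UMI the direction was the opposite, and Reg1 was 1.28-fold higher (1.13 to 1.44) in the Rbpjl-led cluster. Without the top barcode of each cluster, the values per 1000 secretory UMIs were 33.4 (29.4 to 37.7) and 30.2 (28.9 to 31.6), with overlapping intervals.

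Single barcodes of the 2 clusters overlapped only at the low end in the share of their UMIs that came from Reg1, and the secretory-rich median lay above every Rbpjl-led barcode. In the Rbpjl-led cluster the share ran over a lowest of 0%, a median of 0.176% and a highest of 0.862%, against 0.172%, 1.29% and 3.71% in the secretory-rich cluster. In UMIs, the lowest, median and highest barcodes had 0, 3 and 46 in the Rbpjl-led cluster and 2, 37 and 468 in the secretory-rich cluster. Median depths were 2136 and 2583 UMIs. Measured instead per 1000 secretory UMIs of the same barcode, the medians were close, at 21.8 in the 32 Rbpjl-led barcodes with at least 100 secretory UMIs and 24.0 in the 31 secretory-rich ones. The spread on that scale was wider in the Rbpjl-led barcodes, 0 to 201 against 4.83 to 73.5, where the denominators were also smaller.

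**Figure D2:**
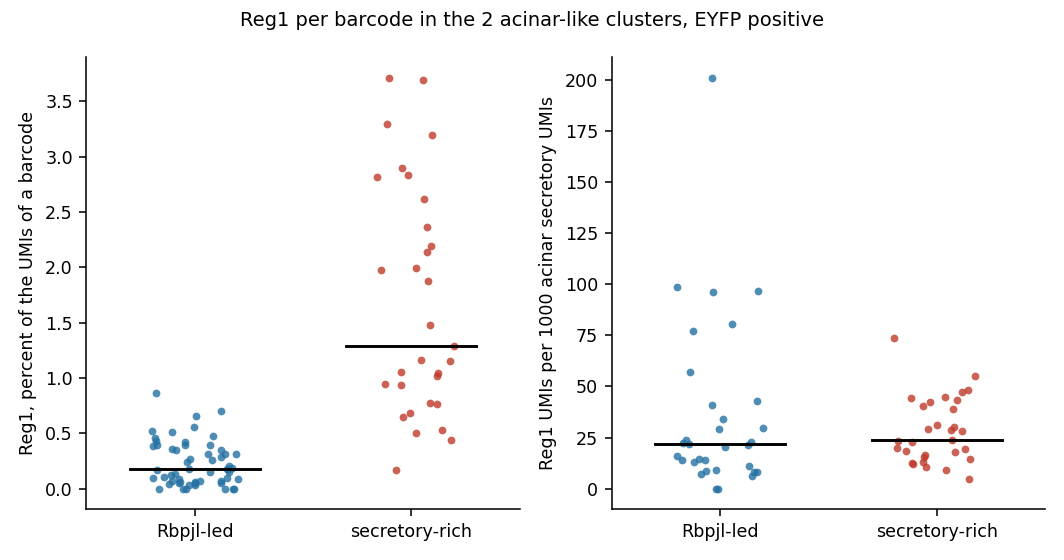
Reg1 per EYFP positive barcode in the Rbpjl-led (left) and secretory-rich (right) acinar-like clusters, as a percent of the barcode's UMIs (first panel) and per 1000 acinar secretory UMIs (second panel, barcodes with at least 100 such UMIs), with lines at the medians. The medians are 0.176% and 1.29% in the first panel and 21.8 and 24.0 in the second.

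Outside the acinar-like clusters, Reg1 appeared in every EYFP positive class of more than 1 barcode. Its level was 1109 CPM in a cluster of 146 barcodes left unnamed, which was led by Gm42418 and Lars2 before digestive enzymes, 572 CPM in NK-like, 387 CPM in ductal-like, 313 CPM in fibroblast-like, 228 CPM in blood endothelial-like, 192 CPM in B-like, 135 CPM in macrophage-like and 53.1 CPM in T-like barcodes. Neighbours in this order mostly had overlapping intervals: NK-like (333 to 915) and ductal-like (346 to 432), ductal-like and fibroblast-like (234 to 411), fibroblast-like and endothelial-like (164 to 309), endothelial-like and B-like (147 to 246), B-like and macrophage-like (91.3 to 193). The ductal-like level depended on the clustering: at resolution 2.0 that class had 28 barcodes in place of 222, and the whole family stood at 121 CPM there, against 398 CPM. The intervals of the acinar-like (10041 to 10820), unnamed (940 to 1301) and T-like (36.1 to 75.3) classes overlapped with none of their neighbours. In the EYFP negative library the lymphoid classes were lower, on few UMIs. Reg1 had 7.96 CPM in NK-like (1 UMI, 0.202 to 44.4) and 1.77 CPM in T-like barcodes (6 UMIs, 0.648 to 3.85). B-like barcodes had 1.39 CPM (1 UMI, 0.0353 to 7.76). The NK-like and B-like counts lie under the limit of 3 UMIs.

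**Figure D3:**
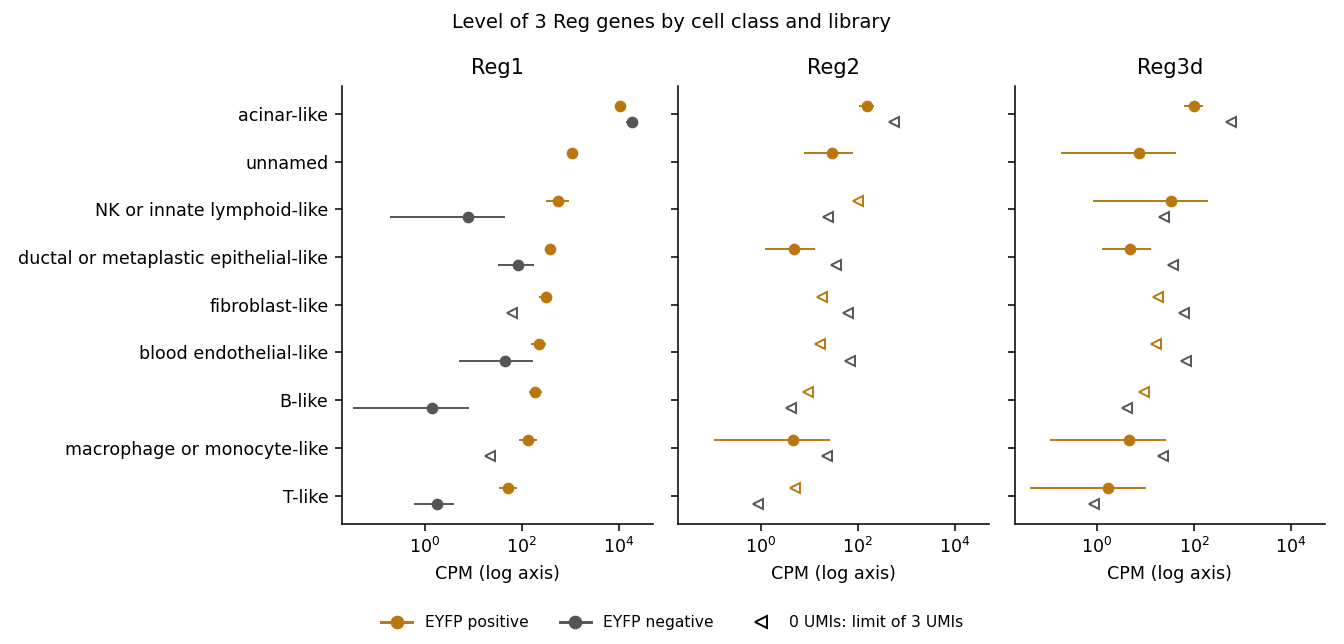
CPM (log axes) of Reg1, Reg2 and Reg3d in each cell class, EYFP positive above EYFP negative, with exact Poisson 95% intervals and open triangles at the limit of 3 UMIs where a class had 0 UMIs; the erythroid-like class, with 1 EYFP positive barcode, is not drawn. Reg1 runs in the EYFP positive library over 53.1 CPM in T-like to 10425 CPM in acinar-like barcodes. Reg2 has 0 UMIs there in B-like, NK-like, T-like, endothelial-like and fibroblast-like barcodes, and Reg3d has 0 in B-like, endothelial-like and fibroblast-like barcodes.

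The order of these classes largely followed their content of secretory transcripts, which was 3.88% in the unnamed cluster, 2.82% in NK-like, 1.39% in ductal-like and 0.191% in T-like barcodes. When Reg1 was divided by the secretory UMIs of the same barcodes, the classes lay closer together. The ratio was 38.2 Reg1 UMIs per 1000 secretory UMIs (34.04 to 42.8) in the Rbpjl-led cluster, 30.0 (28.8 to 31.2) in the secretory-rich cluster and 26.6 (24.7 to 28.7) in all other kept EYFP positive barcodes. Among those other classes it was 30.2 in B-like, 28.6 in the unnamed, 27.9 in T-like, 27.9 in ductal-like, 27.0 in fibroblast-like, 21.1 in endothelial-like, 20.3 in NK-like and 16.5 (11.2 to 23.6) in macrophage-like barcodes. Thus Reg1 spanned 53.1 to 1109 CPM over these classes and 16.5 to 30.2 on the secretory scale. The intervals of macrophage-like and endothelial-like (15.2 to 28.5) barcodes lie under those of both acinar-like clusters. The Rbpjl-led value was 33.4 (29.4 to 37.7) without its top barcode. The EYFP negative acinar-like barcode had 23.3 (19.0 to 28.4). Whether the Reg1 UMIs of a class outside the acinar-like clusters were its own was not tested.

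Barcodes that lack Rbpjl were set as the reference for free RNA. Of the kept EYFP positive barcodes, 95 held Rbpjl and 765 did not, with median depths of 2171 and 955 UMIs. In the EYFP negative library no kept barcode held Rbpjl. Reg1 stood at 3017 CPM in Rbpjl positive (1230 UMIs) and 964 CPM in Rbpjl lacking barcodes (2253 UMIs), a 3.13-fold difference (2.92 to 3.36), where 13.3% of 11858 genes were at least 2-fold higher and 13.2% at least 2-fold lower. Reg3d stood at 49.1 CPM (20 UMIs) against 5.99 CPM (14 UMIs), an 8.19-fold difference (3.94 to 17.5). Reg2 stood at 12.3 CPM (5 UMIs) against 19.2 CPM (45 UMIs), a ratio of 0.637 whose interval includes 1. Reg1 and Reg3d were thus higher beside Rbpjl, and for Reg2 no difference was detectable. How Rbpjl positive barcodes were defined moved the Reg1 fold: it was 5.36 with at least 2 Rbpjl UMIs and 1.17 with any UMI of Rbpjl, Ptf1a, Bhlha15 or Nr5a2. With that last definition the Reg2 ratio was 0.207 (0.0643 to 0.521), an interval that excludes 1. Under a stricter filter, 500 genes and 10% mitochondrial UMIs, the Reg1 fold was 4.92 and the Reg2 ratio 0.528 (0.104 to 1.68).

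The reference was not free of acinar-like barcodes. It included 20 of the 31 secretory-rich barcodes, and these held 1572 of its 2253 Reg1 UMIs and 36 of its 45 Reg2 UMIs. Against the 742 Rbpjl lacking barcodes outside the acinar-like clusters, a reference chosen after the clusters were seen, Reg1 was 10.1-fold higher (9.19 to 11.1) in Rbpjl positive barcodes. Reg3d was then 13.9-fold higher (5.86 to 36.5) and Reg2 3.09-fold (0.813 to 10.3), with 12.6% of genes at least 2-fold higher. The secretory genes were 9.17-fold higher in the same comparison and 3.22-fold higher against all Rbpjl lacking barcodes. The fold of Reg1 was therefore close to that of the secretory genes with either reference.

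Relative to secretory UMIs, Reg1 differed little between Rbpjl positive and lacking barcodes, and the direction depended on which barcodes entered. Rbpjl positive barcodes had 29.2 Reg1 UMIs per 1000 secretory UMIs and Rbpjl lacking barcodes 30.1, a ratio of 0.972 (0.906 to 1.04). The ratio was 1.16 (1.10 to 1.23) over every barcode, 0.878 (0.805 to 0.957) under the stricter filter, 1.04 (0.951 to 1.13) without the top barcode of each set and 1.10 (1.002 to 1.21) against the reference outside the acinar-like clusters. Reg2 had 0.119 in Rbpjl positive and 0.601 in Rbpjl lacking barcodes, a ratio of 0.198 (0.0613 to 0.497). That ratio was 0.301 (0.0566 to 1.04) without the top barcode of each set and 0.337 (0.0887 to 1.12) against the outside reference, and both of these intervals include 1. Reg3d had 0.475 in Rbpjl positive and 0.187 in Rbpjl lacking barcodes, a ratio of 2.54 (1.22 to 5.44). It was 1.38 (0.534 to 3.71) under the stricter filter and 1.52 (0.639 to 3.98) against the outside reference, again with intervals that include 1. The intervals of the 3 detected members were apart against all Rbpjl lacking barcodes and overlapped against the outside reference.

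**Figure D4:**
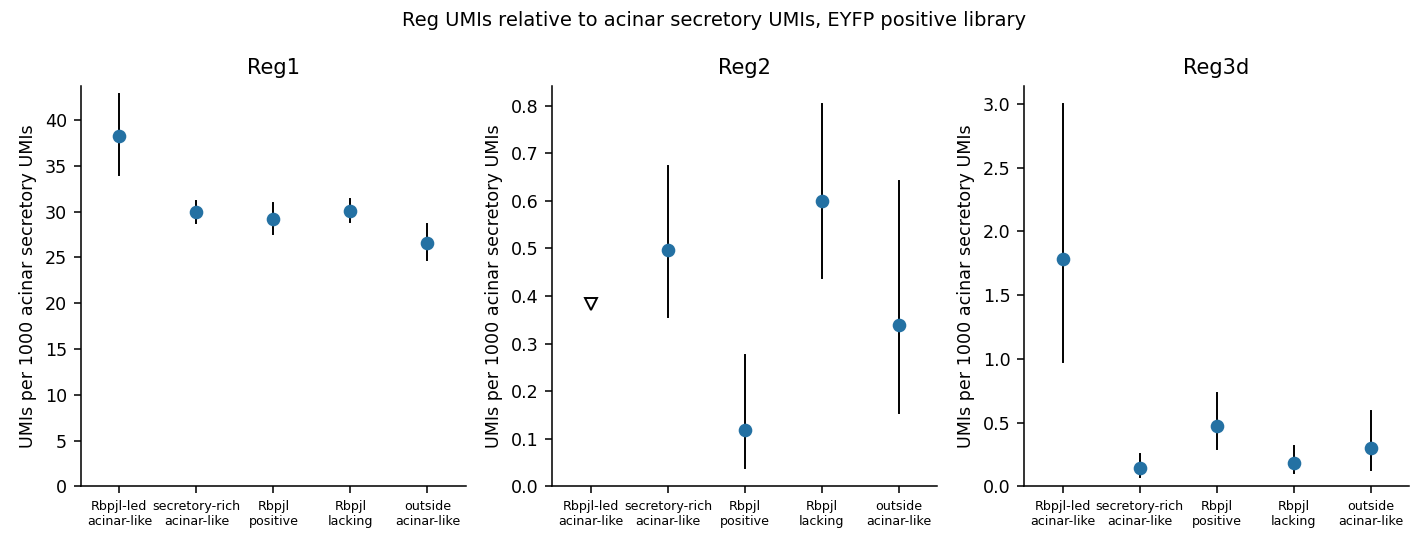
UMIs of Reg1, Reg2 and Reg3d per 1000 acinar secretory UMIs in 5 sets of kept EYFP positive barcodes, with exact Poisson 95% intervals and an open triangle at the limit of 3 UMIs for a count of 0; the sets overlap. Reg1 stays between 26.6 and 38.2 in every set, Reg2 is at 0 in the Rbpjl-led cluster, and Reg3d reaches 1.78 in the Rbpjl-led cluster against 0.145 in the secretory-rich cluster.

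In shares of barcodes, Reg1 was found in 79 of 95 Rbpjl positive barcodes (83.2%, 74.1 to 90.1) and 372 of 765 Rbpjl lacking barcodes (48.6%, 45.0 to 52.2). EYFP positive T-like barcodes, which should lack Reg1, held it in 26 of 84 (31.0%, 21.3 to 42.0) at a median depth of 7245 UMIs. With every barcode thinned to 500 UMIs, which left none out, the shares were 64.2% in Rbpjl positive, 30.6% in Rbpjl lacking and 4.76% in T-like barcodes. Ductal-like barcodes, at 1.39% secretory UMIs against 0.191% in T-like ones, held Reg1 in 35.6% after thinning. T-like barcodes had the lowest thinned share of any EYFP positive class of more than 1 barcode. It was 42.2% in fibroblast-like, 28.1% in NK-like, 23.0% in B-like, 20.7% in endothelial-like and 18.9% in macrophage-like barcodes, and 43.2% in the unnamed cluster. Before thinning, the median depths of these classes ran from 707 UMIs in fibroblast-like to 1355 in B-like barcodes, under the 7245 of T-like ones. Depth before thinning and class cannot be told apart in these shares or in the CPM order above. The Rbpjl lacking share was thus above that of T-like barcodes but within the range of the other classes outside the acinar-like clusters. The Rbpjl positive share was above all of these classes.

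Reg2, the closest relative of Reg1, was confined to few barcodes. Of its 50 UMIs, 28 lay in 1 secretory-rich barcode and 13 in 7 others of that cluster, and 9 lay outside the acinar-like clusters. The Rbpjl-led cluster had 0 UMIs, which allows 21.2 CPM, so Reg2 was at least 15.5-fold lower there than in the secretory-rich cluster (328 CPM, 236 to 445). Without the barcode of 28 UMIs the secretory-rich level was 111 CPM (59.2 to 190). Per 1000 secretory UMIs Reg2 was at least 1.30-fold lower in the Rbpjl-led cluster, against 0.496 in the secretory-rich cluster. Without the barcode of 28 UMIs the secretory-rich value was 0.170 (0.0905 to 0.291), which lies under the limit that 0 UMIs allow in the Rbpjl-led cluster. On the secretory scale the difference thus rested on 1 barcode. Of the 16 barcodes with Reg2, 14 also held Reg1.

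**Figure D5:**
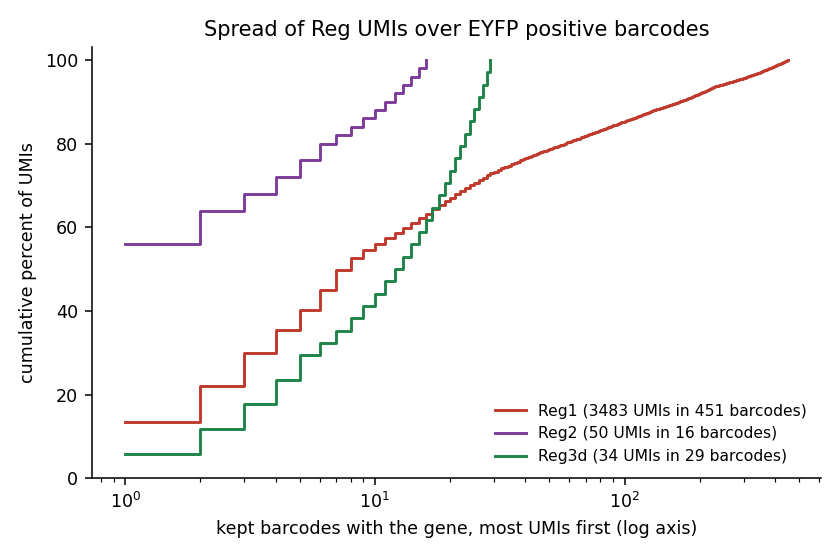
Cumulative percent of the UMIs of Reg1, Reg2 and Reg3d over the kept EYFP positive barcodes that hold each gene, from the barcode with the most UMIs (log axis). The top barcode holds 56.0% of Reg2 UMIs and 13.4% of Reg1 UMIs, while no barcode holds more than 2 Reg3d UMIs.

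Reg3d, a pancreatic member also known as INGAP-related protein, was spread thinly over many barcodes. Its 34 UMIs lay in 29 barcodes, 24 of them with 1 UMI and 5 with 2. The Rbpjl-led cluster had 14 UMIs in 12 of 56 barcodes, the secretory-rich cluster 12 UMIs in 9 of 31 barcodes, and the 773 other barcodes 8 UMIs in 8. Unlike Reg1, its CPM did not separate the clusters: 99.1 CPM (54.2 to 166) in the Rbpjl-led and 96.1 CPM (49.6 to 168) in the secretory-rich cluster, a ratio of 1.03 (0.443 to 2.44). This comparison depends on the scale. Per 1000 secretory UMIs Reg3d was at 1.78 in the Rbpjl-led and 0.145 in the secretory-rich cluster, 12.3-fold higher (5.27 to 29.1) in the Rbpjl-led cluster, but with secretory, mitochondrial, ribosomal and Reg genes left out of the total it was 4.90-fold lower there (2.07 to 11.4), at 140 CPM against 687 CPM.

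Set against Reg1 of the same barcodes, Reg3d needs no total. There were 46.7 Reg3d UMIs per 1000 Reg1 UMIs (25.5 to 78.3) in the Rbpjl-led cluster, 4.85 (2.51 to 8.47) in the secretory-rich cluster and 11.3 (4.88 to 22.3) outside both. The intervals of the acinar-like clusters do not overlap. Of the 29 barcodes with Reg3d, 25 also held Reg1. Reg3d was held by 17 of 95 Rbpjl positive barcodes (17.9%, 10.8 to 27.1) and 12 of 765 Rbpjl lacking barcodes (1.57%, 0.813 to 2.72), against 1 of 84 T-like barcodes (1.19%). Thinned to 1000 UMIs, where 25 Rbpjl positive and 402 Rbpjl lacking barcodes fell away, the shares were 5.71% (1.58 to 14.0) and 1.10% (0.301 to 2.80), and each rested on 4 barcodes. Rbpjl positive barcodes with Reg3d had a median of 3998 UMIs, and those without had 1930.5.

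The inducible Reg3 members were at the limit of detection. Reg3a, whose mouse gene lies beside Reg3d, had its 2 kept UMIs in 2 barcodes outside the acinar-like clusters, and Reg3g had its single UMI in an Rbpjl positive secretory-rich barcode. Over every EYFP positive barcode, kept or not, the totals were 3 for Reg3a, 1 for Reg3b and 1 for Reg3g among 4006807 UMIs. The intervals then reach 2.19 CPM for Reg3a and 1.39 CPM for Reg3b and Reg3g. No kept library had more than 3 UMIs of any of them, so neither fold nor place was compared.

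The genes most like Reg1 were mostly digestive enzymes. Across 70 Rbpjl positive barcodes thinned to 1000 UMIs, the highest Spearman correlations with Reg1 among 1085 genes were those of Cpb1 (0.72), Cela1 (0.67), Cela2a (0.63), Ctrl (0.61) and Cela3b (0.60), a carboxypeptidase, 3 elastases and a chymotrypsin-like protease. All 5 are on the secretory list, and 29 genes reached 0.3. The correlation of Reg1 with the share of secretory UMIs was 0.64 and that with Rbpjl 0.12. These barcodes share 1 library, and the secretory-rich and Rbpjl-led barcodes among them carry most of the range. In this random draw of UMIs, a different one from that behind the thinned shares above, Reg3d had a UMI in 5 of the 70 barcodes, too few for a correlation to be read. The genes ranked highest changed with depth. Thinned to 500 UMIs in 95 barcodes, they were Cela1 (0.61), Pnlip (0.57), Ctrb1 (0.55), Cpa1 (0.54) and Tff2 (0.52), the last not on the secretory list.

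Extl3, the proposed Reg receptor, was higher in Rbpjl positive than in Rbpjl lacking barcodes, as were Reg1 and Reg3d. It had 71.1 CPM (29 UMIs) in Rbpjl positive and 11.98 CPM (28 UMIs) in Rbpjl lacking barcodes, a 5.94-fold difference (3.41 to 10.4). Between the acinar-like clusters it had 163 CPM (23 UMIs) in the Rbpjl-led and 32.0 CPM (4 UMIs) in the secretory-rich cluster, a log2 difference near the 2.14 of the median gene. Between the libraries it differed 1.65-fold (1.13 to 2.41), at 20.8 CPM in the EYFP positive and 12.6 CPM in the EYFP negative library. Extl3 was singled out after its values were seen.

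Of the 31 listed receptor and inducing cytokine genes, 23 had at least 10 UMIs in Rbpjl positive and lacking barcodes together. Extl3 and the growth factor receptor Egfr (44.2 CPM against 13.3 CPM, 3.33-fold) were at least 2-fold higher in Rbpjl positive barcodes, and the cytokine receptors Il17ra, Il1r1 and Osmr were at least 2-fold lower, at ratios of 0.446, 0.302 and 0.337. These counts, 2 higher and 3 lower, are near or under the shares over all genes, 13.3% and 13.2%. These 5 were named after their values were seen. Il1r1 (0.0353 to 1.17) and Osmr (0.0393 to 1.32) had 2 UMIs each in Rbpjl positive barcodes, and their intervals include 1. The median log2 difference of the list was -0.21, against -0.02 for all genes tested. By the rule of most UMIs, Jak1 stood at 159 CPM against 244 CPM (0.653), Lifr at 98.1 CPM against 122 CPM (0.805) and the shared receptor chain Il6st at 85.9 CPM against 77.4 CPM (1.11). Stat3, the transcription factor through which Reg3 genes are induced and also named after its value was seen, had 76.0 CPM against 49.6 CPM, 1.53-fold (0.996 to 2.29).

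Of the listed cytokines, Il22, Il17a, Il11 and Il6 were at or near 0, and values of Lif, Osm, Il1b and Tnf are not given. Il22, Il17a and Il11 had 0 UMIs in both libraries, and Il6 had 0 in the EYFP positive and 1 in the EYFP negative library. The IL-22 receptor subunit Il22ra1 had 2 UMIs, both in Rbpjl positive barcodes. Between the libraries, 7 of the 23 listed genes with 10 UMIs were at least 2-fold higher in the EYFP positive one and 2 at least 2-fold lower, close to the 26.8% and 8.06% of all genes. Lifr, a receptor of the IL-6 family, stood at 118 CPM in the EYFP positive and 15.9 CPM in the EYFP negative library (7.47-fold, 5.81 to 9.70). Il6st had 78.7 CPM against 78.9 CPM in the same comparison, and the list's median log2 difference was -0.003, against 0.21 for all genes.

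Genes of acinar identity and injury stood beside the Reg genes as follows. Of the secretory list, 31 of 35 genes with at least 10 UMIs were at least 2-fold higher in Rbpjl positive than in lacking barcodes (median log2 1.70), where 13.3% of all genes were higher and 13.2% lower. Among them were Cela1 (4.77-fold), Ctrb1 (2.97), Clps (2.73) and Prss2 (2.37). Of 7 lineage factors, 4 were higher: Rbpjl, which made the groups, Bhlha15 (86.0-fold, 21.8 to 743, on 2 UMIs in Rbpjl lacking barcodes) and Ptf1a (29.8-fold, 11.3 to 99.4), which drive the acinar programme, and the secretory factor Xbp1 (2.52-fold). Gata6, Nr5a2 and Foxa2 had ratios of 1.00, 1.47 and 1.80. Of 14 injury and metaplasia genes, 3 were higher and 2 lower, counts too small to set apart from those shares of all genes. Nupr1 stood at 4226 CPM in Rbpjl positive and 169 CPM in Rbpjl lacking barcodes (25.1-fold), whereas Spp1, a ductal and metaplastic marker, stood at 1629 CPM against 5440 CPM (0.299). Clu and Tm4sf4 had ratios of 1.15 and 0.631. Tff2 (3.47-fold), Muc1 (2.23-fold) and Pigr (0.303) passed 2-fold as well and, like Bhlha15 and Ptf1a, were named after their values were seen. Several of these genes also named the clusters, and the Rbpjl lacking barcodes mix many classes, so cell type and Rbpjl cannot be told apart here.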

How the data were processed

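Single-cell RNA libraries of EYFP positive and EYFP negative pancreatic cells were deposited as UMI counts per gene and barcode. The submitters' processing notes name Cell Ranger 2.1.0 and build GRCh38. The matrix headers name 3.1.0 and the gene identifiers are mouse, so neither mapping version nor build is taken as known. The kit is Chromium 5′ v1.1 per the labels. Every column was used.

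Kept barcodes had 200 genes or more and a mitochondrial share of 20% or less. They were clustered without Reg genes (scanpy 1.11.5, igraph 0.11.9: 2000 variable genes, 30 components, 15 neighbours, Leiden resolution 1.0). A name needed at least 3 markers raised 2-fold with 5 UMIs and the highest share of its markers raised among all types. Where any such type had a marker among the top 10 genes, the named type needed one too, and no other type could have more there. Clusters of low depth needed such a marker in any case. This rule was written and revised with the clusters in view. Scrublet marked 2 doublets among 860 EYFP positive barcodes and 5 among 553 EYFP negative ones, too few to count as a working call, and none was removed. CPM intervals are exact Poisson, shares exact Clopper-Pearson and folds exact conditional binomial (scipy 1.17.1, Python 3.11.15). A count of 0 was set at 3 UMIs, and a gene counted as called at 2-fold with at least 10 UMIs. The fold calculation was run on simulated counts that hold counting error only, so spread between barcodes was not covered.

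The named genes were the Reg genes, Reg4 and Rbpjl, the 5 genes most correlated with a member of at least 100 UMIs in Rbpjl positive barcodes, and the 4 genes with most UMIs of each list. One gene under this rule is not reported here. Members and lists were chosen with earlier results of these data known. Coding sequences were compared with Biopython 1.88.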

Additional observations from a re-analysis of the deposited data

Results flagged for a closer look

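Reg1 UMIs were also present in barcodes that failed the filter, which entered only the values given over every barcode. In the EYFP positive library 857 such barcodes held 2321 Reg1 UMIs, or 1840 CPM, above the limit that a count of 0 allows. Of these, 758 barcodes with under 200 genes held 1861 Reg1 UMIs at 23.8 per 1000 secretory UMIs, and 99 barcodes with over 20% mitochondrial UMIs held 460 at 29.4. In the EYFP negative library 192 failed barcodes had 87 Reg1 UMIs, or 198 CPM. All 87 lay in 8 barcodes with under 200 genes, which together drew 71.6% of their UMIs from secretory genes. Reg2 had 15 and Reg3d 17 UMIs in the failed EYFP positive barcodes.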

How the results depend on the processing

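No paired analysis was possible because each group is 1 library and no test was made. The cause of each shift below was not tested. The EYFP positive over negative family fold of 54.5 was 38.6 over every barcode, 40.9 with 500 genes and 10% mitochondrial UMIs, 41.1 as a mean over barcodes, 70.7 thinned to 1000 UMIs and 325 without each library's top barcode. Chosen after seeing the data, it was 83.7 outside the acinar-like clusters, and 136 there without shared barcode sequences. The Rbpjl positive over lacking family fold of 3.11 was 2.29 over every barcode, 4.83 under the stricter filter, 2.17 as a mean over barcodes, 5.34 with 2 Rbpjl UMIs, 1.16 with any of 4 acinar factors, 2.40 without top barcodes, 2.34 and 2.30 thinned to 1000 and 500 UMIs, and 10.03 against lacking barcodes outside the acinar-like clusters, the last chosen after seeing the data. Per secretory UMI that family ratio of 0.966 was 0.861 under the stricter filter, and it reversed to 1.16 over every barcode, 1.05 without top barcodes and 1.09 against the outside reference. For Reg1 alone these reversals were 1.16, 1.04 and 1.10. The Reg2 CPM ratio of 0.637 reversed to 1.02 without top barcodes, 1.20 and 2.68 thinned to 1000 and 500 UMIs, and 3.09 against the outside reference. At resolution 2.0 the family stood at 9207 CPM in acinar-like and 121 CPM in ductal-like EYFP positive barcodes, against 10681 and 398 CPM. The acinar-like class then had 173 barcodes in place of 87, and the ductal-like class 28 in place of 222. Thinned to 500 and 1000 UMIs, Reg1 was in 64.2% and 62.9% of Rbpjl positive and 30.6% and 25.9% of Rbpjl lacking barcodes. Reg3d was in 4.21% and 5.71% of Rbpjl positive barcodes, and at 500 UMIs in 0.261% of Rbpjl lacking ones. The other 21 alternative values of the main results lay within the main intervals, or within 0.1 of the main correlation. Depth limits Reg2, Reg3d and, most of all, Reg3a, Reg3b and Reg3g.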
